A study of Mus musculus with 95 samples.

Results

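The 9 genes described here act at meiotic entry and in meiotic recombination. They were listed by name, with earlier results of these data known, so the counts below are not those of a list drawn blind to them. They are Stra8, Meioc, Mei1, Spo11, Prdm9, Zcwpw1, Dmc1, Msh5 and Tex11, 9 of the 23377 genes in the RNA-seq count table. All 9 were found there, Meioc under its older symbol Gm1564. Their RNA levels were followed over 7 genotypes of mouse embryonic stem cells, together with ChIP-seq peaks of PCGF6, RING1B and H3K4me3 within 2.5 kb of any annotated start.

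Meiosis reduces the chromosome set in germ cells, and embryonic stem cells do not undergo it. Entry is driven by the retinoic acid-induced regulator STRA8 and held by the RNA-binding factor MEIOC. DNA breaks are then made by SPO11 with helpers such as MEI1, at places marked by the histone methyltransferase PRDM9 and read by ZCWPW1, repaired by the recombinase DMC1, and turned into crossovers with MSH5 and TEX11. PCGF6 is the defining subunit of a Polycomb repressive complex 1 variant, PRC1.6, that also holds the ubiquitin ligase RING1B and the DNA-binding proteins MGA, MAX and E2F6, and that is known for repressing germline genes in embryonic stem cells. H3K4me3 marks the starts of active or poised genes.

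All lines derived from E14, a male mouse embryonic stem cell line, kept with serum, LIF (leukaemia inhibitory factor) and blockers of the kinases MEK1/2 and GSK3β. The RNA-seq groups were wild-type, Pcgf1-/-, Pcgf2/4-/- (PCGF4 is the product of Bmi1), Pcgf3/5-/-, Pcgf6-/-, Pcgf1/2/4-/- and Pcgf3/5/6-/-, with 2 libraries each, 14 in all. The knockouts were Cas9-edited clones, and lines lacking several genes came from further editing of a knockout clone. Each knockout line carried 1 clone number in the count table, so that clone and genotype cannot be told apart. For Pcgf6-/-, the authors' deposited comparison carries another clone number than the count table but the same values, so which clone was sequenced is not settled. ChIP-seq lists came from the same genotypes, from a conditional line (Ring1a-/-_Ring1bfl) that carries Rosa26::CreERT2 and its derivative Ring1a/b-/-, and from cells transduced with hairpins labelled shCtr, shMGA, shMGAdHLH, shE2F6 and shE2F6-MGAdHLH. The labels do not spell out dHLH. All these hairpin samples, shCtr included, carry the same harvest time, recorded in hours. The knockout clones carry no harvest time. Hairpin lists and knockout lists therefore also differ in how long a factor had been reduced or absent, and the effect of this was not tested.

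Library totals ran from 2147968 to 7848161 counts over the 14 libraries. The labels do not say that libraries of a group came from separate cultures, so p-values measure only the spread between these libraries, pooled over the 7 groups. That spread was unequal. Chi-square per degree of freedom between the libraries of a group was 0.954 in wild-type, 10.6 in Pcgf1-/- and 21.1 in Pcgf2/4-/-. The pooled fit may understate the spread in these knockout lines. The embryonic stem cell markers Pou5f1, Nanog, Sox2, Zfp42, Esrrb and Klf4 were present in every library. Pcgf6 transcript had 0 counts in both Pcgf6-/- libraries and was at 35.3 ± 1.36 CPM (counts per 1000000, SD, n = 2) in wild-type, at least 171-fold lower in the knockout. In the libraries labelled Pcgf3/5/6-/-, Pcgf6 was at 39.6 ± 3.43 CPM (SD, n = 2; log2 fold change 0.17, adjusted p = 0.338), and neither Pcgf3 (-0.23, adjusted p = 0.448) nor Pcgf5 (0.33, adjusted p = 0.206) was lowered. Nor were Pcgf2 and Bmi1 transcripts lowered in the libraries labelled Pcgf2/4-/- or Pcgf1/2/4-/-, whereas Pcgf1 fell in both lines lacking it. Pcgf5 fell by 1.22 on the log2 scale in the libraries labelled Pcgf3/5-/- (adjusted p = 0.00175), while Pcgf3 gave -0.40 (adjusted p = 0.242). Pcgf5 also fell where it was not targeted, by 1.28 in Pcgf1-/- (adjusted p = 0.00071) and by 1.17 in Pcgf2/4-/- (adjusted p = 0.0032), so its fall does not check that label. Transcript counts do not measure protein, so every direction drawn from those lines refers to the label. In ChIP-seq, PCGF2 peaks numbered 4472 in wild-type and 1050 in the list labelled Pcgf2/4-/-. PCGF3 peaks numbered 223 in wild-type and 21 in Pcgf3/5-/-, but also 117 in Pcgf2/4-/-, where Pcgf3 was not targeted. These are single lists, and the lines labelled Pcgf1/2/4-/- and Pcgf3/5/6-/- had no PCGF list.

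Stra8 (ENSMUSG00000029848.4; NCBIM37 chromosome 6, 34870163 to 34889342, plus strand) was at 5.28 and 6.47 CPM in the wild-type libraries. It was at 125 and 134 CPM in the Pcgf6-/- libraries and at 142 and 146 CPM in the libraries labelled Pcgf3/5/6-/-. Both groups lay far above wild-type with no overlap. Stra8 rose 21.9-fold in Pcgf6-/- cells (log2 fold change 4.46, SE 0.14, adjusted p = 1.01e-10, edgeR's quasi-likelihood test, Benjamini-Hochberg adjusted over all genes) and by 4.61 on the log2 scale in the libraries labelled Pcgf3/5/6-/- (SE 0.14, adjusted p = 6.72e-11). In bulk RNA, a change in the share of cells that express a gene and a change in RNA per cell cannot be told apart. Stra8 was also the member that rose in Pcgf1-/- cells, with 27.5 and 29.7 CPM (4.83-fold, log2 fold change 2.27, SE 0.15, adjusted p = 1.84e-07), between wild-type and Pcgf6-/- and overlapping neither. The libraries labelled Pcgf3/5-/- had 9.76 and 8.05 CPM, a rise of 0.61 on the log2 scale (SE 0.17, adjusted p = 0.0222) that was lost without wild-type replicate 1 (adjusted p = 0.20), without Pcgf3/5-/- replicate 1 (0.30), in a fit of these groups alone (0.092) and with thinned counts, where the value was 0.0078. The libraries labelled Pcgf2/4-/- (2.93 and 4.09 CPM) and Pcgf1/2/4-/- (3.20 and 3.61 CPM) were below wild-type but did not pass the test.

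The wild-type PCGF6 peak of Stra8 did not lie at its start but in an intron, with its summit 1191 bp downstream of the nearest annotated start. The window of 300 bases around that summit (NCBIM37 chr6:34872055-34872354, plus strand, intronic) is shown because the peak was still called in Pcgf6-/- cells. Capitals mark CTCCTAGAG, the most frequent stretch of 9 bases in it, present in 8 copies.
Stra8: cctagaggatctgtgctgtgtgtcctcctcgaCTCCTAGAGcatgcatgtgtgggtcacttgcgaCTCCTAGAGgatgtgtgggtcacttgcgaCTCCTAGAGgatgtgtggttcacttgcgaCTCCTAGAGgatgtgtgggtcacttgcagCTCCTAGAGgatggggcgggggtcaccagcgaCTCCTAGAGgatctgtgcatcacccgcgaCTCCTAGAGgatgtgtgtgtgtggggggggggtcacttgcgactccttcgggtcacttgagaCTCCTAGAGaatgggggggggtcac
Of the 1868 windows of that length around wild-type PCGF6 summits, 2 (0.107%) held 2 or more copies of this stretch.

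Meioc (ENSMUSG00000051455.7; NCBIM37 chromosome 11, 102525030 to 102543551, plus strand) was near the detection limit in wild-type, with 1.14 and 2.53 CPM from 8 and 18 counts. The Pcgf6-/- libraries had 14.1 and 19.8 CPM, and those labelled Pcgf3/5/6-/- had 15.5 and 17.2 CPM. Both groups were above both wild-type libraries. The log2 fold changes were 3.17 (SE 0.35, adjusted p = 5.19e-06), a 9.03-fold rise, and 3.13 (SE 0.39, adjusted p = 1.35e-05). Meioc had 1 count in each library labelled Pcgf3/5-/-, 0.134 and 0.192 CPM, and fell by 3.37 on the log2 scale (SE 0.89, adjusted p = 0.0156). That call was lost without wild-type replicate 2 (adjusted p = 0.14), Pcgf3/5-/- replicate 1 (0.12) or Pcgf3/5-/- replicate 2 (0.057). The other lines ranged from 0 to 2.26 CPM, and none of them passed the test for Meioc.

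The wild-type PCGF6 summit of Meioc lay at -187 bp from the nearest start. The window around it (NCBIM37 chr11:102526565-102526864, plus strand, 0 exonic bases) is printed because RING1B and WDR5 peaks overlay it and because it holds the letters GCGGGAA, in capitals, which match the core that E2F proteins such as E2F6 recognize.
Meioc: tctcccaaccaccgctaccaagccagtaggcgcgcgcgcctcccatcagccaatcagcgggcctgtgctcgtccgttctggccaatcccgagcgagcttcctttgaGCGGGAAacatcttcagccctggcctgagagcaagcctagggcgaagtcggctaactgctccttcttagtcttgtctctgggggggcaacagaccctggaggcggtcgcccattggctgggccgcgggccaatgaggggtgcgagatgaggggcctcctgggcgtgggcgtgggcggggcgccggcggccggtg

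Mei1 (ENSMUSG00000068117.3; NCBIM37 chromosome 15, 81900426 to 81957244, plus strand), needed for break formation, had 1.85 and 2.39 CPM in wild-type from 13 and 17 counts. It had 13.1 and 11 CPM in Pcgf6-/- libraries and 36.7 and 28.7 CPM in those labelled Pcgf3/5/6-/-. It had 0 counts in all libraries of Pcgf1-/- and of the lines labelled Pcgf2/4-/-, Pcgf3/5-/- and Pcgf1/2/4-/-. The order was thus 0 in these lines, then wild-type, then Pcgf6-/-, then Pcgf3/5/6-/-, with no overlap between groups at neighbouring steps. Mei1 rose 5.64-fold in Pcgf6-/- cells (log2 fold change 2.5, SE 0.30, adjusted p = 5.64e-05) and 15.3-fold in the libraries labelled Pcgf3/5/6-/- (3.93, SE 0.28, adjusted p = 1.61e-06). Against a floor of 3 counts over the group, Mei1 was at least 9.57-fold lower than wild-type in Pcgf1-/- (adjusted p = 0.00107), 7.23-fold in Pcgf2/4-/- (0.00324), 8.98-fold in Pcgf3/5-/- (0.00209) and 2.89-fold in Pcgf1/2/4-/- (0.0133). The last of these was lost without Pcgf1/2/4-/- replicate 1 (adjusted p = 0.066) or replicate 2 (0.079), and all of them when every library was thinned to the smallest total.

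The PCGF6 summit of Mei1 lay at -2 bp from its only annotated start. Its coding first exon held both an E-box, CACGTG, the core bound by MGA with MAX, and GCGGGAA, shown in capitals within 30 bases each (NCBIM37 chr15:81900463-81900492 and chr15:81900511-81900540, plus strand).
Mei1 E-box site: ctcgcgctcctcCACGTGcgctcggagcgc
Mei1 E2F site: gcagaagcggcGCGGGAAaacctgcgctgc

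Zcwpw1 (ENSMUSG00000037108.7; NCBIM37 chromosome 5, 138229026 to 138263849, plus strand) reads the histone marks that PRDM9 leaves. It had 38.5 and 36.7 CPM in wild-type, 73.6 and 81.7 CPM in Pcgf6-/- libraries and 53.1 and 64.9 CPM in those labelled Pcgf3/5/6-/-. The rises were smaller than those of the entry genes but the groups did not overlap wild-type. The log2 fold changes were 1.04 (SE 0.14, adjusted p = 2.82e-05; 2.06-fold) and 0.65 (SE 0.15, adjusted p = 0.00234), the latter lost without Pcgf3/5/6-/- replicate 2 (adjusted p = 0.052). Zcwpw1 fell by 1.05 in the libraries labelled Pcgf2/4-/- (15.9 and 19.3 CPM, SE 0.17, adjusted p = 0.000633) and by 0.72 in those labelled Pcgf3/5-/- (25.7 and 19.4 CPM, SE 0.15, adjusted p = 0.00431), the second of these lost with thinned counts (0.12). The gene overlaps Pilra on the other strand, and the use of strand in counting is not given in the sources used here, so reads of both cannot be told apart. Pcgf1-/- (28.6 and 34.5 CPM) and the libraries labelled Pcgf1/2/4-/- (27.8 and 28.0 CPM) were below wild-type without passing the test.

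Zcwpw1 had the strongest wild-type PCGF6 peak of the members, with a fold enrichment of 40.5 by the authors' peak caller, at the 99.9th percentile of that list. Its summit lay 80 bp downstream of the start, in an untranslated exon, close to a GCGGGAA in these 30 bases (NCBIM37 chr5:138229071-138229100, plus strand).
Zcwpw1: ttctcctggtgGCGGGAAaagttgctcgag

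Spo11 (ENSMUSG00000005883.9; NCBIM37 chromosome 2, 172803201 to 172819077, plus strand), the enzyme that cuts the DNA, was too low to be tested in the edgeR fit. It had 0 counts in both wild-type libraries, 10 and 3 counts in Pcgf6-/- (1.24 and 0.460 CPM) and 6 and 3 counts in Pcgf1-/- (0.656 and 0.686 CPM). The libraries labelled Pcgf3/5/6-/- had 3 and 0 counts, those labelled Pcgf2/4-/- 1 and 0, and the other lines 0. Over the group floor of 3 counts, Spo11 was at least 4.01-fold higher than wild-type in Pcgf6-/- and at least 3.16-fold higher in Pcgf1-/-, without a test in the edgeR fit. The authors' deposited DESeq2 comparisons gave adjusted p = 0.082 in Pcgf6-/- and 0.138 in Pcgf1-/-, and marked Spo11 as changed in neither.

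Prdm9 (ENSMUSG00000051977.7; NCBIM37 chromosome 17, 15680043 to 15701318, minus strand) had 9.85 and 11.4 CPM in wild-type and 12.1 and 8.58 CPM in Pcgf6-/-, so that the groups overlapped. The log2 fold change was -0.03 (SE 0.22, adjusted p = 0.948), and its sign changed with the scaling (0.0054 with RLE factors). Prdm9 had 6.00 and 7.44 CPM, below wild-type, in the libraries labelled Pcgf3/5/6-/-, with -0.66 (SE 0.28, adjusted p = 0.0586). This value passed the threshold with loess offsets (adjusted p = 0.0108), without a filter on low counts (0.0498) and when only the libraries of both groups were fitted (0.0196). Over the other 4 knockout lines it ranged from 5.34 to 9.89 CPM, and no call was made.

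Dmc1 (ENSMUSG00000022429.9; NCBIM37 chromosome 15, 79391930 to 79435529, minus strand), the meiotic strand-exchange recombinase, had 28.5 and 28.7 CPM in wild-type and 32.6 and 28.3 CPM in Pcgf6-/-. The Pcgf6-/- libraries lay on either side of wild-type (0.09, SE 0.14, adjusted p = 0.655). Dmc1 was lower in the libraries labelled Pcgf3/5/6-/- (16.7 and 21.6 CPM), Pcgf3/5-/- (16.7 and 19.8 CPM) and Pcgf1/2/4-/- (19.2 and 14.9 CPM), each below both wild-type libraries. It fell there by 0.58 (SE 0.17, adjusted p = 0.0101), 0.66 (SE 0.15, adjusted p = 0.00748) and 0.76 (SE 0.19, adjusted p = 0.00716) on the log2 scale. Each of these calls was lost without 1 library, namely Pcgf3/5/6-/- replicate 1 (adjusted p = 0.13), Pcgf3/5-/- replicate 1 (0.095), either wild-type library in the Pcgf3/5-/- comparison (0.051 and 0.057) and Pcgf1/2/4-/- replicate 2 (0.12). Loess offsets ended the calls in Pcgf3/5/6-/- (0.080) and Pcgf1/2/4-/- (0.15), and thinned counts all of these. Pcgf1-/- (32.1 and 33.6 CPM) and the libraries labelled Pcgf2/4-/- (25.1 and 26.8 CPM) did not pass the test. Dmc1 overlaps the annotated gene AC117806.1 on the same strand.

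Dmc1 carried a wild-type PCGF6 peak at the low end of that list, with a fold enrichment of 5.33 at the 3.27th percentile. The intronic part of its summit window (NCBIM37 chr15:79435202-79435391, minus strand, written along the gene) is shown because it holds the same GCGGGAA although the RNA of Dmc1 did not pass the test in Pcgf6-/- cells.
Dmc1: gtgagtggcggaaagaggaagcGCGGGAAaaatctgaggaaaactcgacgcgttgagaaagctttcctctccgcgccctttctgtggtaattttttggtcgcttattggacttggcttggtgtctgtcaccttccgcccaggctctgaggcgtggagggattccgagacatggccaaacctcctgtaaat

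Msh5 (ENSMUSG00000007035.8; NCBIM37 chromosome 17, 35165550 to 35183690, minus strand), which pairs with MSH4 to hold crossover intermediates, had 3.14 and 4.08 CPM in wild-type and 3.98 and 3.52 CPM in Pcgf6-/-, inside the wild-type range. The log2 fold change was 0.06 (SE 0.37, adjusted p = 0.927), and it turned to -0.51 with loess offsets. Over the other lines Msh5 ranged from 2.14 to 7.28 CPM, with no call against wild-type.

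Tex11 (ENSMUSG00000009670.5; NCBIM37 chromosome X, 98033987 to 98255006, minus strand), an X-linked crossover factor, had 18.1 and 17.6 CPM in wild-type. It had 211 and 236 CPM in Pcgf6-/- libraries and 146 and 153 CPM in those labelled Pcgf3/5/6-/-, well above every other library. It rose 12.5-fold (log2 fold change 3.64, SE 0.13, adjusted p = 2.26e-10) and 8.37-fold (3.06, SE 0.13, adjusted p = 9.15e-10). It had 5.87 and 8.58 CPM in the libraries labelled Pcgf1/2/4-/-, and fell by 1.28 on the log2 scale (SE 0.23, adjusted p = 0.000722). The remaining lines, at 15.5 to 22.1 CPM, did not pass the test. Gm14901 overlaps Tex11 on the other strand, and their reads cannot be told apart without strand.

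Tex11 had no PCGF6 peak in the wild-type list, but it had a peak in the longer list of control hairpin cells, with its summit at -168 bp. That window (NCBIM37 chrX:98255025-98255324, minus strand, written along the gene, upstream of the start) is shown for its 2 copies of GCGGGAA, in capitals.
Tex11: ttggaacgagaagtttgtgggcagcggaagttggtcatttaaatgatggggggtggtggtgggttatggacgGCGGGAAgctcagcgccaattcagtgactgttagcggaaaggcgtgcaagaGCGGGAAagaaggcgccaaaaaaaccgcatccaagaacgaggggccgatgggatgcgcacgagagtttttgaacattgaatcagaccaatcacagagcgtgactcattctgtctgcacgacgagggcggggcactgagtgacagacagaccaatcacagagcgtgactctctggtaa

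**Figure D1:**
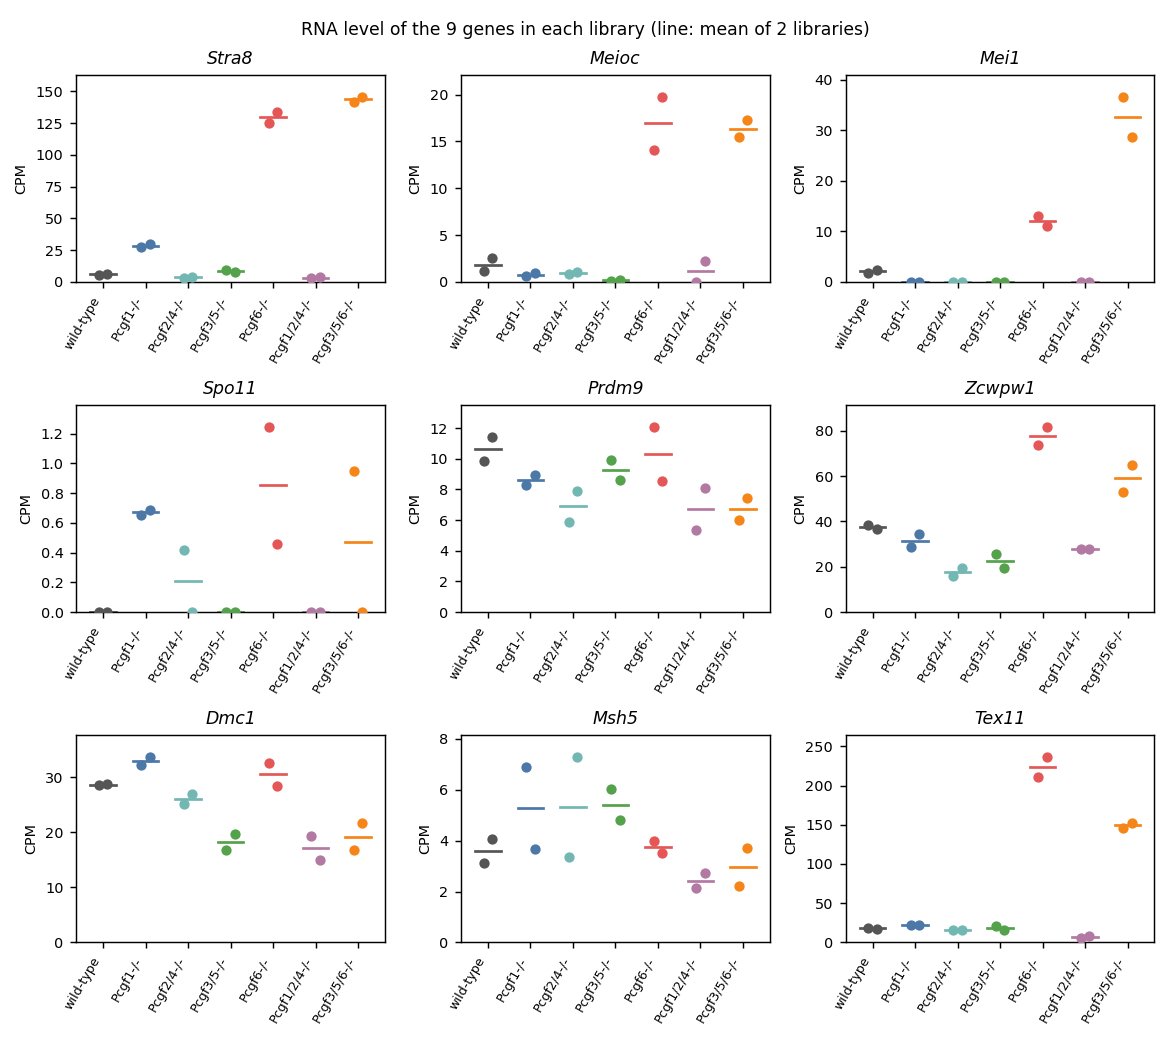
RNA level of each of the 9 genes in CPM (y axis, from 0) in each of the 14 libraries, grouped by genotype (x axis); points are libraries and short lines are group means. Stra8, Meioc, Mei1, Zcwpw1 and Tex11 stand above wild-type in the libraries labelled Pcgf6-/- and Pcgf3/5/6-/-, while Dmc1, Msh5 and Prdm9 do not.

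Per kilobase of exon, levels can be compared between genes. In wild-type, Zcwpw1 was the highest at 14.8 ± 0.505 CPM per kb (SD, n = 2), ahead of Dmc1 at 13.0 ± 0.0501, Tex11 at 4.93 ± 0.105, Stra8 at 3.26 ± 0.468 and Prdm9 at 2.40 ± 0.248. Msh5 (0.653 ± 0.120), Mei1 (0.514 ± 0.0918) and Meioc (0.398 ± 0.213) followed, and Spo11 was at 0. The neighbours Msh5 and Mei1 and the neighbours Mei1 and Meioc differed by less than the sum of their SDs. In Pcgf6-/- cells Stra8 came first at 71.9 ± 3.34 CPM per kb and Tex11 second at 61.7 ± 4.97, above Zcwpw1 at 30.5 ± 2.25 and Dmc1 at 13.8 ± 1.37.

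In Pcgf6-/- against wild-type, 5 of the 8 members tested rose and 0 fell, against 27.8% of the 15464 genes tested raised and 18.6% lowered. At an unadjusted p below 0.05 the members gave the same 5 and 0, and so did DESeq2. The median log2 fold change of the 8 members was 1.77, beside 0.03 over all genes tested. Those that rose were Stra8, Meioc, Mei1, Zcwpw1 and Tex11. All 5 remained called without any 1 of the 4 libraries. When a log2 change beyond 1 was required, Zcwpw1 dropped out (adjusted p = 0.63). The authors' deposited table carries another clone number for Pcgf6-/- but the same values, so it is not an independent measurement. Its log2 fold changes were 4.49 for Stra8, 3.23 for Meioc, 2.54 for Mei1 and 3.68 for Tex11, all marked as upregulated. Zcwpw1, at 1.08, was not marked so.

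**Figure D2:**
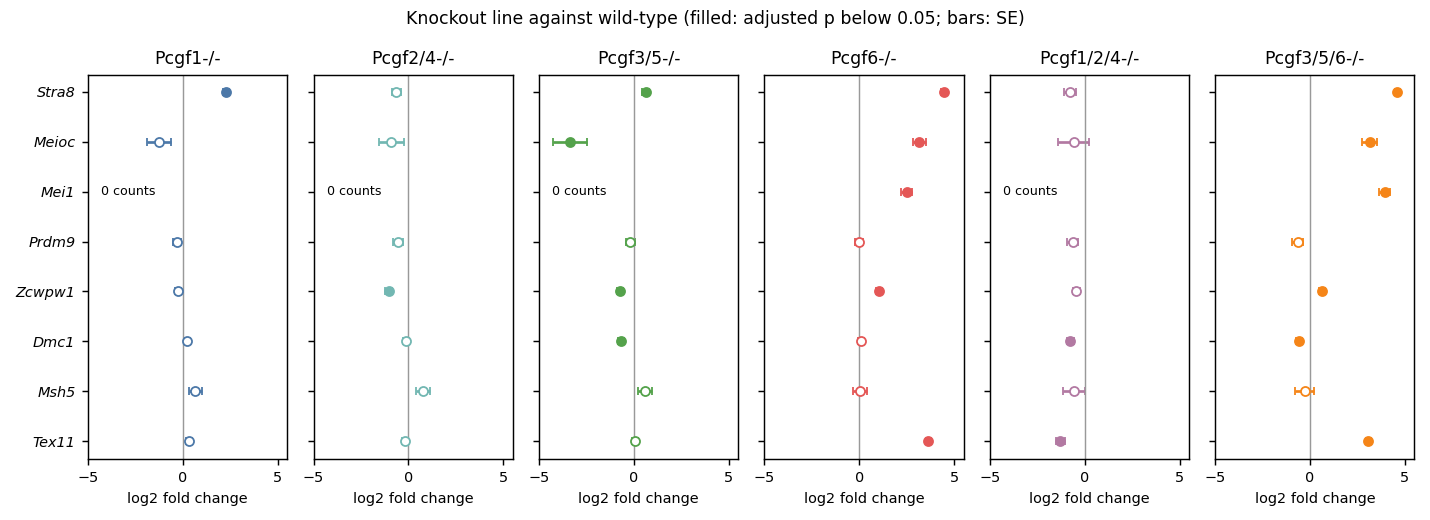
log2 fold change of the 8 tested genes (y axis) against wild-type (x axis, no change at 0) in each of the 6 knockout lines, with bars of 1 standard error; filled points have an adjusted p below 0.05. Mei1 is written as 0 counts where both libraries of a line had none, and the 5 filled points to the right in Pcgf6-/- are Stra8, Meioc, Mei1, Zcwpw1 and Tex11.

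In Pcgf1-/-, 1 member rose (Stra8) and 1 fell (Mei1), against 13.9% and 18.4% of all genes. In the libraries labelled Pcgf2/4-/-, 0 rose and 2 fell (Mei1 and Zcwpw1), against 8.10% and 13.5%; at an unadjusted p below 0.05 the counts were 0 and 4, and with DESeq2 0 and 2. In those labelled Pcgf3/5-/-, 1 rose (Stra8) and 4 fell (Meioc, Mei1, Zcwpw1 and Dmc1), against 11.1% and 10.4%. The count of 5 was 3 in a fit of those 2 groups alone and 0 with thinned counts. In those labelled Pcgf1/2/4-/-, 0 rose and 3 fell (Mei1, Dmc1 and Tex11), against 14.4% and 22.6%; the unadjusted counts were 0 and 5, those with DESeq2 0 and 3. There, 38.9% of the calls over all genes were raised, but 49.1% with loess offsets and 50.8% with DESeq2, and with loess offsets 2 members fell.

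Pcgf6-/- was compared directly with each line labelled as lacking only other PCGF genes. Against Pcgf1-/-, 5 members were higher and 0 lower (32.2% and 20.3% of all genes), although that line already had raised Stra8. Stra8 still differed by 2.18 on the log2 scale (SE 0.11, adjusted p = 1.72e-09), Meioc by 4.46, Zcwpw1 by 1.31 and Tex11 by 3.34, and Mei1 was at least 54.3-fold higher. Against the libraries labelled Pcgf2/4-/-, 5 were higher and 0 lower (31.8% and 20.0%). Against Pcgf3/5-/-, 6 were higher and 0 lower (28.1% and 17.9%), and against Pcgf1/2/4-/-, 6 and 0 (35.8% and 21.9%), where the sixth was Dmc1, by 0.75 and 0.85. The latter call was lost without Pcgf1/2/4-/- replicate 2 (adjusted p = 0.055) and with thinned counts (0.088). Unadjusted and DESeq2 counts were the same in these 4 comparisons, while loess offsets added 1 lower member in the first, the second and the third of them. All genes together had a median of 0.21 against Pcgf1/2/4-/-, which was 0.07 with loess offsets. These comparisons share the Pcgf6-/- libraries.

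Against wild-type, the libraries labelled Pcgf3/5/6-/- had 5 members raised (Stra8, Meioc, Mei1, Zcwpw1 and Tex11) and 1 lowered (Dmc1), against 28.0% and 25.3% of all genes, and the member median was 1.86 beside 0.05. This comparison shares the wild-type libraries with that of Pcgf6-/-. Set directly against Pcgf6-/-, Mei1 was 2.70-fold higher (log2 difference 1.43, SE 0.22, adjusted p = 0.000462), and Tex11 was lower by -0.58 (SE 0.11, adjusted p = 0.00085), Dmc1 by -0.67 (SE 0.17, adjusted p = 0.00486) and Zcwpw1 by -0.40 (SE 0.14, adjusted p = 0.0368), so 1 member was higher and 3 lower against 19.0% and 27% of all genes. Zcwpw1 was not called with DESeq2 (adjusted p = 0.069) and was lost without either Pcgf6-/- library or Pcgf3/5/6-/- replicate 1, and Dmc1 without that replicate (0.081). Thinned counts ended the calls of Mei1 (0.15), Zcwpw1 and Dmc1, and loess offsets that of Zcwpw1 (0.16). Stra8 (0.15, SE 0.10, adjusted p = 0.247) and Meioc (-0.04, SE 0.28, adjusted p = 0.922) did not pass the test. Against the libraries labelled Pcgf3/5-/-, 5 members were higher and 0 lower (27.1% and 24.7%), also without adjustment and with DESeq2, and loess offsets added 1 lower member. Interaction terms set the combined line against the sum of the effects seen in its parts. For Pcgf3/5 and Pcgf6, 2 members were above that sum (Meioc and Mei1) and 1 below (Tex11), against 14.6% and 20.2% of all genes, and for Pcgf1 and Pcgf2/4, 1 was above (Zcwpw1) and 4 below (Stra8, Dmc1, Msh5 and Tex11), against 14.1% and 16.8%.

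PCGF6 peaks lay within 2.5 kb of a start in 6 of the 9 members in wild-type cells, against 5.83% of 21001 annotated genes. The 6 were Stra8, Meioc, Mei1, Spo11, Zcwpw1 and Dmc1, of which Stra8 and Zcwpw1 also had a called peak in Pcgf6-/- cells. Each list came from 1 ChIP sample, with no replicate check, and fold enrichments are those of the authors' peak caller. Fold enrichment was 10.4 at Stra8 (74.0th percentile of the 1868 peaks), 10.1 at Meioc (72.3), 14.6 at Mei1 (90.9) and 21.1 at Spo11 (96.9), where the summit lay 181 bp downstream of an internal start. Zcwpw1 was higher and Dmc1 lower than these, as given above. Prdm9, Msh5 and Tex11 had none.

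Lists differed widely in length, from 355 to 12842 PCGF6 peaks, so absence from a short list shows little. In Pcgf6-/- cells, 1042 peaks were called, which touch 1.62% of genes, and 2 members kept a peak, Stra8 and Zcwpw1. Meioc, Mei1, Spo11 and Dmc1 had none. At Stra8 the fold enrichment there was 19.9 (86.6th percentile), with the summit 1194 bp from the start. At Zcwpw1 it was 9.53 (47.9th percentile). The Stra8 peak was thus called at its intronic repeat in a line with 0 Pcgf6 counts. In the 8 lists that hold it, its summit lay 1182 to 1198 bp from the nearest start.

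The list of control hairpin cells (shCtr, 7451 peaks, 21% of genes) held 7 members, the wild-type 6 and Tex11. With shMGA, 2 members remained among 468 peaks (0.729% of genes), again Stra8 (fold enrichment 8.25) and Zcwpw1 (9.0). With shMGAdHLH, 4 members were held among 733 peaks (2.26%), namely Meioc, Spo11, Zcwpw1 and Dmc1. With shE2F6, 4 were held among 557 peaks (1.88%), namely Meioc, Mei1, Spo11 and Zcwpw1. The list labelled shE2F6-MGAdHLH (355 peaks, 0.824%) held Zcwpw1 alone. At Meioc the enrichment was 15.9 with shCtr and 5.47 with shE2F6, and at Mei1 22.3 and 10.4, in lists that differ in length.

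In lines labelled as lacking other subunits, PCGF6 peaks were still called at members. The lists held 6 members in Pcgf1-/- (18.2% of genes), 9 in Pcgf2/4-/- (33.5%) and 5 in Pcgf3/5-/- (5.40%), where Stra8 was missing. Without RING1A and RING1B the list held 7 members (4.83%), the wild-type 6 and Tex11, and 6 in the conditional line Ring1a-/-_Ring1bfl (6.26%). Over all 12 PCGF6 lists, Zcwpw1 was present in 12, Meioc and Spo11 in 9, Stra8, Mei1 and Dmc1 in 8, Tex11 in 3, and Prdm9 and Msh5 in 1.

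**Figure D3:**
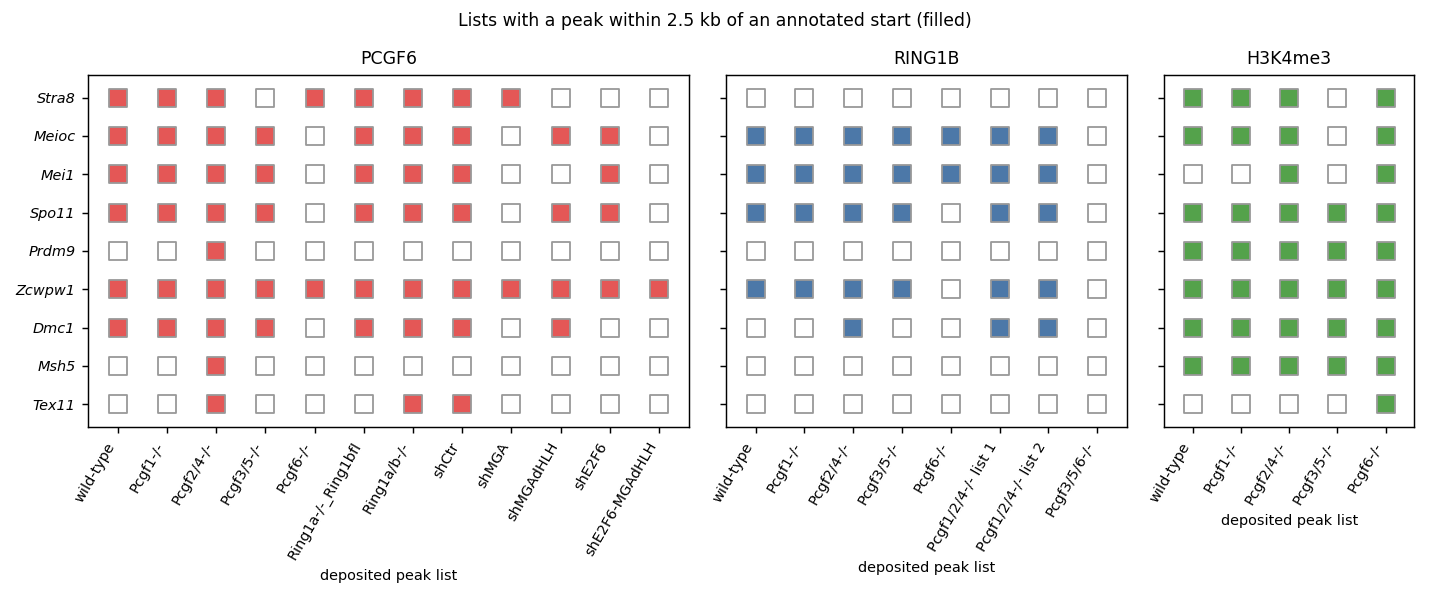
Presence of a peak within 2.5 kb of a start of each gene (rows) in the lists of PCGF6 (12), RING1B (8) and H3K4me3 (5), with 1 column per condition; a filled square is a called peak. Zcwpw1 is filled in every PCGF6 column, Prdm9 and Msh5 in 1, and the Pcgf3/5/6-/- column of RING1B is empty.

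**Figure D4:**
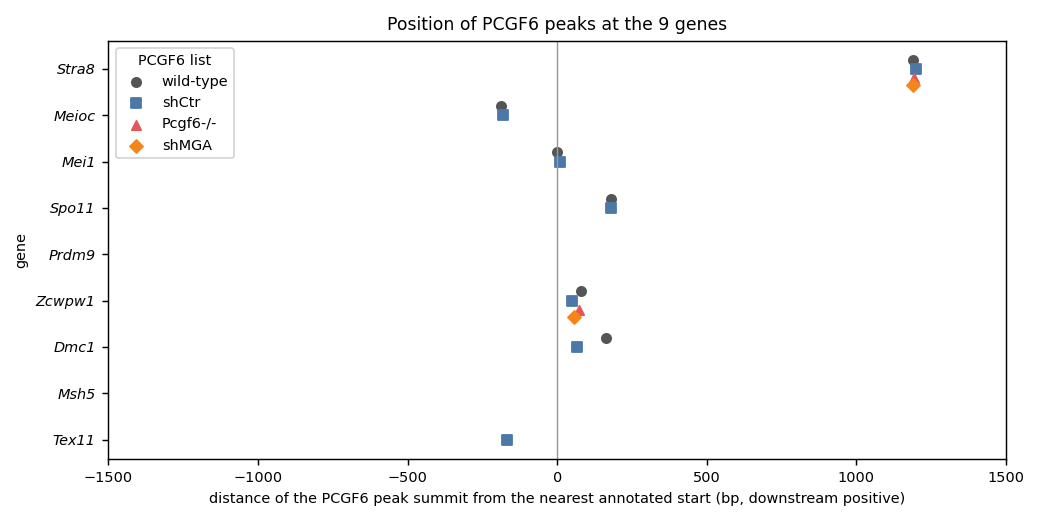
Distance of PCGF6 peak summits from the nearest annotated start in bp (x axis, 0 is the start, positive is downstream) for each gene (y axis) in the wild-type, control hairpin, Pcgf6-/- and shMGA lists; each point is 1 peak. Summits of Meioc, Mei1, Zcwpw1, Spo11, Dmc1 and Tex11 lie near a start, whereas those of Stra8 lie about 1191 bp downstream in each of these lists.

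RING1B peaks were found in 4 members in wild-type, Meioc, Mei1, Spo11 and Zcwpw1, against 15.8% of genes. The lists of Pcgf1-/- (15.9%) and Pcgf3/5-/- (16.1%) held the same 4, that of Pcgf2/4-/- (17.8%) held Dmc1 in addition, and both lists of Pcgf1/2/4-/- (7.06% and 6.28%) held these 5. In Pcgf6-/- (13.2%), 2 members were held, Meioc and Mei1. These lists held 5454 peaks in wild-type and 5563 in Pcgf6-/-. Fold enrichment at Meioc was 13.9 in the former (percentile 75.7 of its list) and 5.15 in the latter (percentile 6.65), and at Mei1 10.4 (percentile 60.3) and 6.80 (percentile 37.4). Spo11 and Zcwpw1 had none. The list labelled Pcgf3/5/6-/- (3068 peaks, 8.39% of genes) held 0 of the 9. WDR5, another PRC1.6 subunit, had a wild-type peak at 5 members (9.49% of genes), the RING1B genes and Dmc1.

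Marks of the Polycomb systems were present at some of the same starts. SUZ12, a subunit of the complex that writes H3K27me3, had peaks at Meioc and Mei1 both in wild-type (17.2% of genes) and in Pcgf6-/- (15.2%). H3K27me3 itself was called at Meioc, Mei1, Spo11 and Zcwpw1 in wild-type (13.4%) and at Mei1 and Msh5 in Pcgf6-/- (14.2%). H2AK119ub1, the mark that RING1A and RING1B write, was called at Mei1 in wild-type (3.96%) and at 0 members in Pcgf6-/- (7.25%). The list labelled Pcgf3/5/6-/- held it at Meioc, Mei1, Prdm9 and Msh5 (32.2%), and that labelled Pcgf3/5-/- at all 9 members (66.9%). These H2AK119ub1 lists differ widely in length, with 1741 peaks in wild-type and 128786 in Pcgf3/5-/-.

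Among the members with both a PCGF6 and a RING1B peak in wild-type, the 3 that could be tested (Meioc, Mei1 and Zcwpw1) rose in Pcgf6-/-. With PCGF6 alone, Stra8 rose and Dmc1 was not called. With neither, Tex11 rose, and Prdm9 and Msh5 were not called. This sorting used the wild-type lists of PCGF6 and RING1B only. PCGF2 peaks were also called at Meioc, Mei1 and Zcwpw1, both in wild-type (13.5% of genes) and in Pcgf6-/- (20.4%). A RING1B peak at these 3 genes therefore cannot be assigned to PCGF6 alone. PCGF6 peaks of Stra8 and Zcwpw1 were also called in Pcgf6-/- cells, so the wild-type call alone does not show PCGF6 there. Tex11 had a PCGF6 peak in 3 of the 12 PCGF6 lists. The association was not tested over so few genes.

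H3K4me3 peaks were common, at 68.4% of genes in wild-type, and 7 members had one. Mei1 and Tex11 did not. In Pcgf6-/- (70.2% of genes) all 9 members had one. Mei1 gained a peak of 901 bp and Tex11 a peak of 1654 bp, and the main peak widened from 635 to 1317 bp at Stra8 and from 812 to 1605 bp at Meioc. At Dmc1 (1786 and 1699 bp), Msh5 (810 and 831 bp) and Prdm9 (2150 and 2320 bp) widths were similar, and their RNA was not called. At Spo11 a second peak of 284 bp appeared at the internal start. At Zcwpw1, peaks of 929 and 4355 bp, which also reach the neighbouring start of Mepce, were called as 1 peak of 5789 bp. The lists of Pcgf1-/- (67.4% of genes) and Pcgf2/4-/- (68.3%) held 7 and 8 members. In the Pcgf2/4-/- list Mei1 had a peak of 337 bp, with 0 Mei1 counts in the RNA libraries of that label, and peaks wider than in wild-type were called at Stra8 (1009 bp) and Meioc (1008 bp), whose RNA did not rise there. That of Pcgf3/5-/- (67.1%) held 5, without Stra8, Meioc, Mei1 and Tex11.

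Motif letters were searched on both strands in windows of 300 bases around PCGF6 summits, a search chosen after the data were seen, and in RefSeq promoters. The letters were CACGTG for an E-box, GCGGGAA for an E2F core and AGGTGTGA for a T-box, the element of MGA's other DNA-binding domain; these do not overlap in sequence. In wild-type summit windows, GCGGGAA was found in 4 of the 6 members, Meioc, Mei1, Zcwpw1 and Dmc1, against 11.2% of all 1868 windows. CACGTG was found in 1, Mei1, against 25.9%, and AGGTGTGA in 0, against 2.57%. In the control hairpin list, 5 of 7 member windows held GCGGGAA, against 7.88% of 7451. RefSeq promoters (GRCm38.p6, from 250 bases before to 50 after a start) were matched for 7 members, all but Tex11 and Spo11. GCGGGAA stood in those of Meioc, Msh5 and Prdm9, against 4.6% of 32851 promoters, and CACGTG (7.15%) and AGGTGTGA (1.28%) in 0. A match describes letters only.

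Other meiotic genes were taken from a list of 46, of which 40 were in the table and 38 were tested. In Pcgf6-/-, 16 rose and 4 fell, with a median of 0.17, and in the libraries labelled Pcgf3/5/6-/-, 10 rose and 10 fell, with a median of -0.10. Over all genes, 27.8% rose and 18.6% fell in the former and 28.0% and 25.3% in the latter, so that the counts in the libraries labelled Pcgf3/5/6-/- are near the background. Entry genes moved most in Pcgf6-/-, where 5 of 7 rose and 1 fell. Among them Sohlh1, a germ cell transcription factor, had 0 counts in wild-type and was at least 17.8-fold higher (adjusted p = 1.16e-05), Rbm46, an RNA-binding protein, rose by 4.91 (SE 0.23, adjusted p = 6.46e-09) and Figla, an oocyte transcription factor, by 3.57 (SE 0.59, adjusted p = 0.000222). Of 6 break genes, 3 rose and 0 fell, with Iho1, another gene of break formation, at 2.85 (SE 0.21, adjusted p = 1.11e-07). Of 15 strand-exchange genes, 5 rose and 2 fell, near the share over all genes, with Rad51ap2 at 3.11 (SE 0.42), Brme1 at -1.50 (SE 0.28) and Hsf2bp at -0.89 (SE 0.20). Of 10 crossover genes, 3 rose and 1 fell, also near it, with the helicase Hfm1 at 4.33 (SE 0.32) and Mlh3 at -0.58 (SE 0.11). In the libraries labelled Pcgf3/5/6-/-, Sohlh1 was at least 76.2-fold higher, and Rbm46 (4.50), Figla (4.01), Meiob (3.91), Prr19 (3.21) and Hfm1 (2.68) rose. Hsf2bp fell by 1.71, Ccnb1ip1 by 1.21 and Brca2 by 1.05.

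In the remaining lines this list gave 3 rising and 11 falling in Pcgf1-/- (6 and 12 with loess offsets), where 13.9% and 18.4% of all genes did. It gave 2 and 6 in Pcgf2/4-/- (8.10% and 13.5% of all genes), 5 and 4 in Pcgf3/5-/- (11.1% and 10.4%), and 2 and 9 in Pcgf1/2/4-/- (14.4% and 22.6%; 4 and 9 with loess offsets).

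Over the 7 group means, the genes outside the list whose profile was most like the average of the 8 tested members were Slco3a1 (Pearson r = 0.994), 1500009L16Rik (0.991), Gpank1 (0.989), Cryaa (0.989) and Stk32a (0.988), among 13402 genes. Tex11 had the closest profile to the average of the other members (r = 0.97), then Meioc (0.94), Zcwpw1 (0.91), Stra8 (0.89) and Mei1 (0.89). Dmc1 (0.22), Prdm9 (0.19) and Msh5 (-0.28) did not follow it. These are descriptions over 7 points that share normalization.

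The summed level of 10 germ cell markers was 355.9 and 356.4 CPM in wild-type, 795 and 828 in Pcgf6-/-, 718 and 678 in the libraries labelled Pcgf3/5/6-/-, and 190 to 333 in the other lines, with Nanos2 at 0 in every library. In Pcgf6-/-, 5 of the 9 tested rose and 2 fell, with a median of 0.50, and in the libraries labelled Pcgf3/5/6-/- 3 rose and 2 fell, with a median of 0.043 beside 0.048 over all genes. In Pcgf6-/-, Ddx4, a germ cell RNA helicase, rose by 3.92 and Dazl, a germ cell RNA-binding protein, by 2.55, while Nanos3 and Id4 fell by 0.96 and 1.06. The 5 measured markers of 2-cell-like cells summed to 104 and 102 CPM in wild-type, 463 and 511 in Pcgf6-/-, 285 and 281 in the libraries labelled Pcgf3/5/6-/- and 3.66 to 53.6 elsewhere, and all 5 rose in Pcgf6-/-. Primitive endoderm markers (6 genes, 5 at 0 in each wild-type library) went from 1.71 and 1.97 CPM to 54.7 and 48.0 in Pcgf6-/- and to 55.0 and 64.9 in the libraries labelled Pcgf3/5/6-/-. Fibroblast markers (5 genes) went from 10.6 and 7.45 to 28.6 and 24.4 in Pcgf6-/-. Mesendoderm markers (4 genes) went from 55.5 and 50.1 to 7.35 and 7.35, and trophoblast markers (4 genes, of which 2 rose and 1 fell) from 85.0 and 91.8 to 55.7 and 48.7. Embryonic stem cell markers were at 1159 and 1170 CPM in wild-type and 1077 and 1164 in Pcgf6-/-. Mga fell by 0.97 in Pcgf6-/-, by 1.30 in the libraries labelled Pcgf3/5/6-/- and by 1.13 in those labelled Pcgf1/2/4-/- (adjusted p = 1.96e-05). E2f6 rose by 0.64 in Pcgf6-/- and fell by 1.11 in the libraries labelled Pcgf1/2/4-/-, and Pcgf5 rose by 1.83 in Pcgf6-/-. The part of these changes in the members' levels was not tested.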

How the data were processed

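RNA-seq of 14 libraries was read from 1 table of raw counts per gene that the authors deposited, with 0 unmapped columns. The authors also deposited 80 peak lists with a fold ratio, −log10 p and q values and a score per peak, and tables of log2 fold changes, p-values, mean signal and other columns, per the file headers; score and signal were not used. Bowtie 1.2.2, TopHat2 2.1.1, HTSeq 0.7.2, MACS2 2.1.1 and mm9 stand in the submitters' processing notes. Coordinates are NCBIM37 with GENCODE M1.

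Counts were tested with edgeR 4.0.16 in R 4.3.3 (quasi-likelihood, TMM, filterByExpr, 7 groups of 2, 15464 genes; Benjamini-Hochberg over all genes, threshold 0.05), which was checked on simulated data. The simulated data had the same spread in every group, so that check does not cover the unequal spread between the real groups. DESeq2 1.42.0, other scalings and filters, thinning, a replicate block and left-out libraries were alternatives. An exact permutation test of 2 against 2 cannot go below 0.333. Wild-type libraries differed by no more than sampling noise (chi-square per degree of freedom 0.954, against 1.20 to 21.1 in other groups); both were kept, and each was left out in turn. Folds against 0 counts use a floor of 3 counts over the group, which covers counting error only. Named were all members, the targeted genes, up to 6 raised and 3 lowered other meiotic genes of largest change in Pcgf6-/- and in Pcgf3/5/6-/-, and the 5 most alike genes with a group mean of at least 5 CPM. Members and lists were chosen with earlier results of these data known.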

Additional observations from a re-analysis of the deposited data

Results flagged for a closer look

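Effects of a knockout that differed with the background it was made in, by an interaction term in the same edgeR fit, were found for these members. For Pcgf3/5 loss combined with Pcgf6 loss, the log2 interaction was 3.33 for Meioc (SE 0.95, adjusted p = 0.0147), 7.97 for Mei1 (SE 1.01, adjusted p = 0.000221) and -0.63 for Tex11 (SE 0.18, adjusted p = 0.0173), so 2 members were above and 1 below additivity, against 14.6% and 20.2% of all genes. The Mei1 value rests on 0 counts in the libraries labelled Pcgf3/5-/- and is no bound. For Pcgf1 loss combined with Pcgf2/4 loss, it was -2.42 for Stra8 (SE 0.35, adjusted p = 0.000177), 0.89 for Zcwpw1 (SE 0.25, adjusted p = 0.0151), -0.83 for Dmc1 (SE 0.24, adjusted p = 0.0196), -1.96 for Msh5 (SE 0.64, adjusted p = 0.0321) and -1.41 for Tex11 (SE 0.28, adjusted p = 0.00166), so 1 was above and 4 below, against 14.1% and 16.8% of all genes. Stra8 rose in Pcgf1-/- and not in the libraries labelled Pcgf1/2/4-/-. Transcripts of Pcgf3, Pcgf5 and Pcgf6 in the libraries labelled Pcgf3/5/6-/-, and of Pcgf2 and Bmi1 in those labelled Pcgf2/4-/- and Pcgf1/2/4-/-, were not lowered, so these terms refer to labels. Of these calls, those of Mei1 and Stra8 held under all 15 alternatives. Dmc1, Msh5 and Tex11 (the last for Pcgf3/5 with Pcgf6) were each lost under 7, Zcwpw1 under 5, Meioc under 4 and Tex11 for Pcgf1 with Pcgf2/4 under 2. Left-out libraries that ended a call were wild-type replicate 2 and Pcgf3/5-/- replicate 1 for Meioc. For Tex11 with Pcgf6 they were either wild-type library, Pcgf3/5-/- replicate 1, Pcgf6-/- replicate 2 and Pcgf3/5/6-/- replicate 1, with adjusted p from 0.053 to 0.19. For Zcwpw1 they were Pcgf1-/- replicate 1 and either Pcgf1/2/4-/- library (0.057 to 0.071), for Dmc1 either wild-type library and replicate 2 of Pcgf2/4-/- and of Pcgf1/2/4-/- (0.054 to 0.11), and for Msh5 wild-type replicate 1, Pcgf1-/- replicate 1, Pcgf2/4-/- replicate 2 and either Pcgf1/2/4-/- library (0.089 to 0.36). For Meioc the adjusted p was then 0.099 and 0.092.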

How the results depend on the processing

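Of 85 calls on named genes, 50 held under every alternative, 35 were lost under at least 1, and 0 changed sign. Of the 29 counts recomputed, 246 values stayed close to the main count and 54 moved. With loess offsets the other meiotic genes raised were 6 in Pcgf1-/-, 4 in Pcgf2/4-/- and 4 in Pcgf1/2/4-/-. When a log2 change beyond 1 was required, they were 0 in Pcgf1-/-, 0 in Pcgf2/4-/-, 1 in Pcgf3/5-/-, 9 in Pcgf6-/- and 0 in Pcgf1/2/4-/-, and the members called were 1 in Pcgf2/4-/-, 1 in Pcgf3/5-/-, 0 in Pcgf1/2/4-/-, 0 in Pcgf3/5/6-/- against Pcgf6-/-, and 1 in each interaction; a stricter test calls fewer genes. With counts thinned to the smallest library, members called were 1 in Pcgf1-/-, 1 in Pcgf2/4-/-, 0 in Pcgf3/5-/-, 1 in Pcgf1/2/4-/-, 1 in Pcgf3/5/6-/- against Pcgf6-/- and 1 in each interaction, and other genes raised 0 in Pcgf2/4-/- and 3 in Pcgf3/5-/-. In fits of 2 groups alone, others raised were 0 in Pcgf2/4-/- and 9 in Pcgf1/2/4-/-, and members called 3 in Pcgf3/5-/-. DESeq2 raised 1 other gene in Pcgf2/4-/-. The cause of moves beyond fewer genes or counts was not tested.

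Leaving out 1 library gave, for members, 2 to 3 in Pcgf1-/-, 2 to 3 in Pcgf2/4-/-, 2 to 4 in Pcgf3/5-/-, 5 in each case in Pcgf6-/-, 1 to 3 in Pcgf1/2/4-/-, 5 to 6 in Pcgf3/5/6-/-, 2 to 4 in Pcgf3/5/6-/- against Pcgf6-/-, and 1 to 3 and 2 to 5 in the interactions. For other genes raised it gave 2 to 3 in Pcgf1-/-, 0 to 5 in Pcgf2/4-/-, 3 to 5 in Pcgf3/5-/-, 14 to 15 in Pcgf6-/-, 0 to 1 in Pcgf1/2/4-/- and 10 in each case in Pcgf3/5/6-/-.

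Uncalled values changed sign as follows. Prdm9 in Pcgf6-/- was 0.0054 with RLE factors, 0.29 thinned, 0.0020 with DESeq2, and -0.31 to 0.18 without 1 library. Msh5 there was -0.51 with loess offsets, -0.27 thinned and -0.12 to 0.26 without 1 library. Meiob was -0.22 with loess offsets, and Dmc1 -0.013 to 0.19 without 1 library. In Pcgf3/5/6-/-, Msh5 was -0.73 to 0.034 and Rad51ap2 -1.40 to 0.017 without 1 library.

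Replicate numbers showed no common pairing of libraries over the groups. Over 21 pairs of groups the correlation of same-numbered deviations ran from -0.46 to 0.38, with a median of 0.013, and was above 0.1 in 3. A pairing or batch shared by only some groups was not tested. With the replicate number as a block, members called in Pcgf6-/- were again 5, and other genes raised in Pcgf1/2/4-/- were 1; other counts were within the limit of moving. For peaks, a window of 1 kb left 1 member in the PCGF6 lists of Pcgf6-/- and of shMGA, and a minimum −log10 q of 10 left 1 in RING1B of Pcgf6-/- and 1 in PCGF6 of shMGA. Depth limits Mei1, Meioc and Spo11 most, whose wild-type levels rest on at most 18 counts per library.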
